A study of Homo sapiens with 6 samples.

Results

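Long noncoding RNA (lncRNA) promoters of H9 were examined in a conventional and a reset state by genome-wide bisulfite sequencing. H9 is an established line of human embryonic stem cells. Bisulfite sequencing reads methylated and hydroxymethylated cytosines alike as C and others as T. The set held 14290 of the 18229 autosomal lncRNA genes annotated by GENCODE release 44 on GRCh37. A promoter was the stretch between 1000 bp before and 500 bp after the start of the canonical transcript. Promoters that overlapped one of a protein-coding gene were left out (3045 genes), as were 894 with fewer than 10 methylation calls in a library. The promoters lay in 13737 separate clusters, and 3800 of the genes carried an HGNC symbol.

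There were 3 libraries of conventional and 3 of reset cells, which the study describes as biological replicates. Whether each reset library stems from its own resetting is not given in the sources used here, so errors and p-values speak for these libraries only. The p-values of single promoters rest also on the number of calls and on dispersions shared across promoters. Every culture was H9 on mouse embryonic fibroblast feeders at 5% oxygen. The medium of conventional cells held bFGF at 10 ng/ml and KSR at 20%. Reset cells had been derived from H9 carrying NANOG and KLF2 transgenes switched on by 1 μM doxycycline (DOX), and were then kept without DOX in t2iL+Gö, which is 1 μM PD0325901, 1 μM CHIR99021, LIF and 5 μM of the PKC inhibitor Gö6983. Transgenes and culture differ between the states together and cannot be told apart. The libraries were amplified with 11 PCR cycles. They held 91846988 to 97822789 calls at CpGs in conventional and 70186287 to 80042858 in reset cells, or 2.507 to 3.494 calls per CpG. A level is the percentage of methylated calls over a promoter, so its precision rests on the number of calls there (median 58.5 per library). Expression was not measured in these libraries.

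Cytosine methylation at CpGs is copied onto new DNA strands by DNMT1 and set anew by the DNMT3 enzymes. CpG-poor promoters are mostly methylated in somatic and conventional pluripotent cells, while CpG-dense promoters mostly escape it. Naive pluripotent cells of the early embryo are globally hypomethylated, and imprinted control regions are the textbook exception, since one parental allele stays methylated there through the action of ZFP57 and ZNF445 with TRIM28. lncRNA genes include antisense and divergent neighbours of developmental regulators, hosts of microRNAs and snoRNAs, and primate-specific transcripts that start in retroviral repeats.

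To show the DNA behind the extremes, the 200 bases with the most CpGs are given for 3 promoters that gained methylation, 3 that lost nearly all of it and 2 whose mean level was held, taken from the leading genes with an HGNC symbol. The bases are the plus strand of GRCh37 and CG dinucleotides are in capitals. The raised promoters were LINC01956 (chr2:119593042-119593241, 25 CpGs), SOX21-AS1 (chr13:95354835-95355034, 24 CpGs) and LINC02135 (chr16:86320172-86320371, 24 CpGs). Their stretches stood at 0%, 0.556% and 1.29% methylation in conventional cells and at 59.5%, 66.7% and 75.3% in reset cells.
LINC01956: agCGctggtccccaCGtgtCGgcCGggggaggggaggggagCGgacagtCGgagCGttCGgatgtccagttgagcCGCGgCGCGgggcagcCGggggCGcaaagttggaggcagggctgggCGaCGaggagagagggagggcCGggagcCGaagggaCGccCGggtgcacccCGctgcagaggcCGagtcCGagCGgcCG
SOX21-AS1: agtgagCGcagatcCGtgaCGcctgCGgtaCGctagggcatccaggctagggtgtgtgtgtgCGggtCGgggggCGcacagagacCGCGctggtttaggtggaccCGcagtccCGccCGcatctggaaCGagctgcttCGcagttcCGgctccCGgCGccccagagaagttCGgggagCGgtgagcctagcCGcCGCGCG
LINC02135: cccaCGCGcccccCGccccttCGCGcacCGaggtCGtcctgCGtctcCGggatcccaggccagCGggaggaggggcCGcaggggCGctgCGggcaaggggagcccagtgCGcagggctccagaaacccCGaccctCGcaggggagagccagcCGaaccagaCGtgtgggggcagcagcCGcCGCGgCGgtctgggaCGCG

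The erased promoters were TPTEP1 (chr22:17082277-17082476, 37 CpGs), ZNF790-AS1 (chr19:37288459-37288658, 25 CpGs) and EEF1A1-AS1 (chr6:74233274-74233473, 27 CpGs). Their stretches stood at 99.8%, 96.0% and 84.5% in conventional cells and at 0.667%, 0.966% and 0% in reset cells. By CpG number they are as dense as the raised ones, and more so in TPTEP1. They were taken from the most CpG-dense class of erased promoters, so this does not describe erased promoters at large. Over all erased promoters, as defined below, the median was 14 CpGs per promoter, against 62 over all raised ones.
TPTEP1: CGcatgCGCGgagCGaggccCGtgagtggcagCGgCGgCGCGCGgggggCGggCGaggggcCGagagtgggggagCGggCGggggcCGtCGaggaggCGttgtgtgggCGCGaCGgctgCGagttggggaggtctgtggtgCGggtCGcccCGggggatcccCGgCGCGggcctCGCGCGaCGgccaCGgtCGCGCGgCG
ZNF790-AS1: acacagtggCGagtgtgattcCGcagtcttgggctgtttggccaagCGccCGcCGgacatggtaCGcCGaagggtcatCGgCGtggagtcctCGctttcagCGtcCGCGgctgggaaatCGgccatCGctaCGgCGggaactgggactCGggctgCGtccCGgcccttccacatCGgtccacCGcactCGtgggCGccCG
EEF1A1-AS1: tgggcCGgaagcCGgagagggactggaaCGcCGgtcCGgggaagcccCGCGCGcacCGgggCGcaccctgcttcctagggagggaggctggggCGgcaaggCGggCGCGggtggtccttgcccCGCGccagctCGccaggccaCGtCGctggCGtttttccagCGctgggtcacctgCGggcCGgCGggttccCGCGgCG

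The kept promoters were FAM182B (chr20:25848521-25848720, 17 CpGs) and PARD6G-AS1 (chr18:77905296-77905495, 22 CpGs). FAM182B went from 77.7% ± 7.35 to 48.0% ± 13.6 and PARD6G-AS1 from 42.1% ± 18.0 to 69.3% ± 26.9 over these 200 bases (SD, n = 3), although the whole promoters changed by 0.4395 and -4.605 points.
FAM182B: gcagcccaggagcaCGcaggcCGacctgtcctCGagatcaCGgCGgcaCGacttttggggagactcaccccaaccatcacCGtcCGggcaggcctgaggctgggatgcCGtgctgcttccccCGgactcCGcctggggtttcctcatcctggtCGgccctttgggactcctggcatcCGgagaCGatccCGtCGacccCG
PARD6G-AS1: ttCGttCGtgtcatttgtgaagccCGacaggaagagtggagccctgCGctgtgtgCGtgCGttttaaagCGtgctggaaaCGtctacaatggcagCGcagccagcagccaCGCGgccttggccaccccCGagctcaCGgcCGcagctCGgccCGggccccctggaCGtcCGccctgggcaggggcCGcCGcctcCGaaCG

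lncRNA promoters lost 62.15% of their methylation on resetting. Their mean level was 78.53%, 78.60% and 78.40% in the conventional libraries and 29.15%, 29.90% and 30.08% in the reset libraries, which gives 78.5% ± 0.105 and 29.7% ± 0.493 (SD, n = 3). No library of one state came near those of the other. With 3 libraries against 3 the two-sided exact permutation test cannot give a p below 0.1, and it gave 0.1 here and for each class below. The 7393 promoters with under 20 CpGs fell from 87.5% ± 0.0916 to 29.3% ± 0.571. The 5256 with 20 to 59 CpGs fell from 79.2% to 34.1%, and the 1641 with 60 or more CpGs from 35.8% to 17.5%. In this class the change was -18.30 points, and -10.36 points when the promoter was taken from 500 bp upstream to 500 bp downstream. CpG-poor promoters thus began highest and lost the largest share, 66.52% against 51.06% in the densest class.

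**Figure D1:**
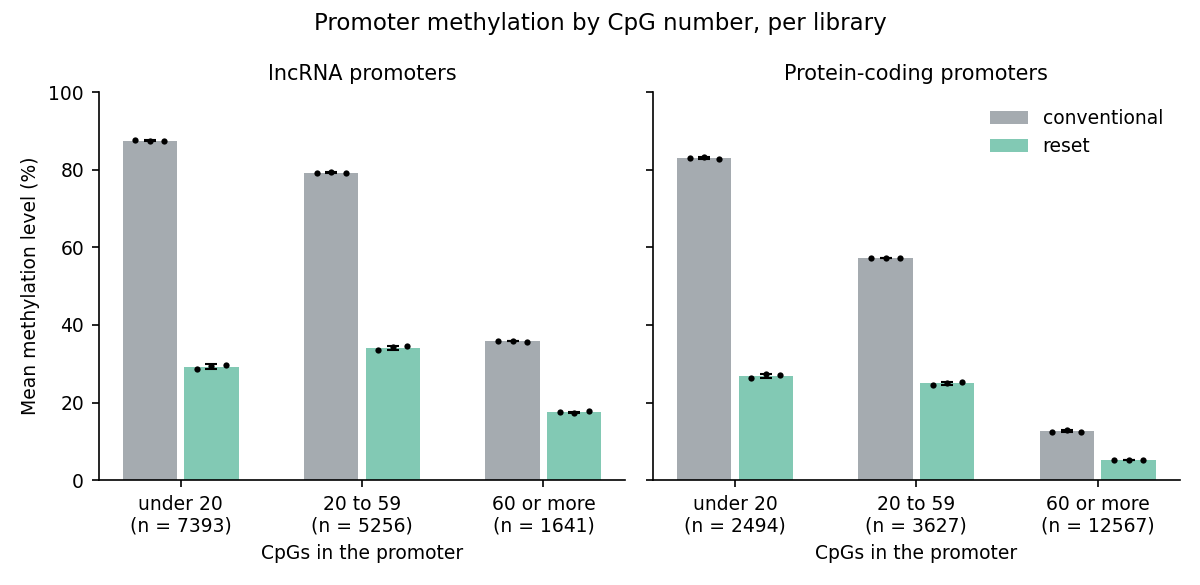
Mean promoter methylation level (%, y axis) by number of CpGs in the promoter (x axis) for lncRNA genes (left) and protein-coding genes (right). Bars are means of 3 libraries with SD and dots are libraries; lncRNA promoters of 60 or more CpGs went from 35.8% to 17.5%, protein-coding ones from 12.6% to 5.21%.

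Protein-coding promoters with the same bounds (18688 autosomal genes) served to show where lncRNA promoters differ. At 60 or more CpGs the lncRNA promoters were higher by 23.2 points ± 0.185 in conventional cells and still by 12.3 points ± 0.248 in reset cells. This holds for the set without promoters that overlap a coding one. The 2387 dense lncRNA promoters so left out stood at 8.37% and 3.75%, below coding promoters at 12.6% and 5.21%. With 20 to 59 CpGs the difference was 21.95 and 9.08 points, and under 20 CpGs 4.48 and 2.36 points. Each difference shrank, with changes of -10.89, -12.87 and -2.115 points, and each had the smallest p the test allows (exact permutation test, p = 0.1). A difference in points shrinks when both sets lose most of their level. As shares, dense lncRNA promoters lost 51.06% and dense coding ones 58.72%. With 20 to 59 CpGs the shares were 56.94% and 56.29%, and under 20 CpGs 66.52% and 67.56%. When coding promoters were weighted to the CpG numbers of the lncRNA promoters, a step added once the values were known, the difference was 20.4 and 11.3 points in the densest class and 13.3 and 5.46 points in the middle class. Under 20 CpGs it was 4.46 and 2.62 points.

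The shape around the start also differed. In bins of 250 bp, CpG-dense lncRNA promoters dipped from 69.5% at 3 kb upstream to 23.4% just after the start in conventional cells, and from 30.2% to 10.9% just before the start in reset cells. The dip was shallower than that of coding promoters in the same class. In the middle class the lncRNA profile had a shallow dip, with 82.9% at 1 kb upstream and 72.1% just after the start in conventional cells, and 36.1% and 31.2% in reset cells. lncRNA promoters under 20 CpGs had no dip of more than a few points in either state.

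**Figure D2:**
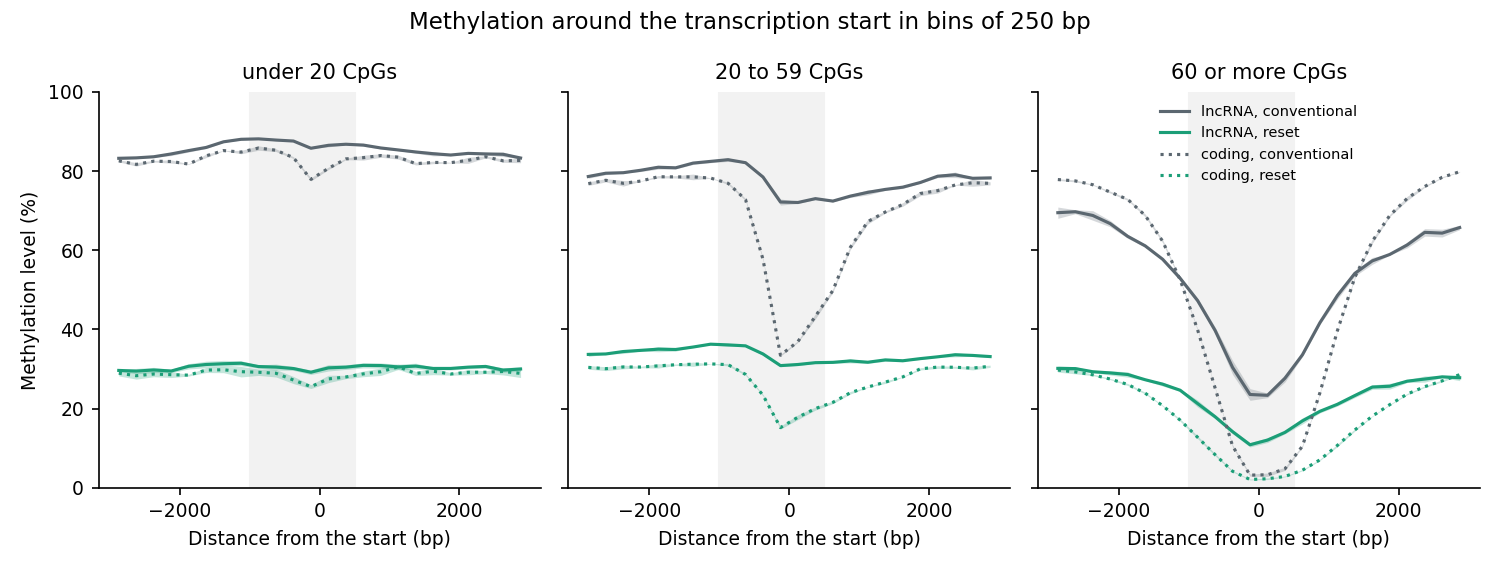
Methylation level (%, y axis) by distance from the transcription start (bp, x axis, bins of 250 bp) in 3 classes of CpG number, as means of 3 libraries with SD shading, for lncRNA (solid) and protein-coding (dotted) genes. The grey band is the promoter; CpG-dense lncRNA promoters dip to 23.4% just after the start in conventional cells and to 10.9% just before it in reset cells.

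The level in reset cells followed the start level, with a median of 4.472% from a start under 20%, 22.75% from 20 to 80% and 34.77% from 80% or more. Of 10598 lncRNA promoters at 80% or more in conventional cells, the middle 50% lay between 23.85% and 43.50% in reset cells. The outcome was most uneven among CpG-dense promoters. Of the 418 such promoters with 60 or more CpGs, 119 (28.5%) still had 50% or more and 86 (20.6%) were under 20%. Under 20 CpGs, 6.50% of 6355 promoters stayed at 50% or more and 25.2% went under 20%. Averaged over these highly methylated promoters, the reset libraries stood at 29.55%, 30.46% and 30.72% with under 20 CpGs, at 37.48%, 38.49% and 38.54% with 20 to 59 and at 37.71%, 38.56% and 39.26% with 60 or more. The CpG-poor class was therefore lowest in every reset library, and the other classes overlapped. Dense coding promoters at 80% or more were left with 34.3% ± 0.290 (n = 272).

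At single promoters, a quasi-binomial model fitted over 37081 lncRNA and coding promoters with Benjamini-Hochberg adjustment called 13223 lncRNA promoters lower and 323 higher (adjusted p under 0.05), and 744 in neither direction. These are 92.5% and 2.26% of lncRNA promoters, where all promoters tested gave 76.8% lower and 3.66% higher. The median change was -51.8 points, against -27.4 points over all promoters tested. Calls went with the start level. Of the 13158 that began at 20% or more, 97.8% were called lower and 0.160% higher. The 1132 that began under 20% were called lower in 30.8% and higher in 26.7%, while coding promoters of that start level were called lower in 49.0% and higher in 7.08% of 10980. This last contrast between lncRNA and coding promoters is a description and was not tested.

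Promoters were then sorted into 3 kinds. Kept means at least 50% in conventional cells and at least 80% of that level left in reset cells. Raised means called higher, by at least 10 points and with no overlap between libraries. Erased means at least 50% in conventional and under 5% in reset cells. There were 39 kept, 201 raised and 239 erased lncRNA promoters, or 0.273%, 1.41% and 1.67% of the set. The rules applied to all promoters tested gave 0.167%, 1.59% and 1.20%, lncRNA promoters included, and coding promoters alone 0.0856%, 1.65% and 0.685%. Kept and erased need a start of 50% or more, which 12324 lncRNA and 4866 coding promoters had. Of those, 0.316% of lncRNA and 0.329% of coding promoters were kept and 1.94% and 2.63% erased (6.43% and 11.2% with 60 or more CpGs). From a start under 20%, 16.3% of lncRNA and 2.50% of coding promoters were raised. By CpG number (under 20, 20 to 59, 60 or more) there were 7, 19 and 13 kept, 11, 79 and 111 raised, and 130, 77 and 32 erased. In the densest class raised promoters made up 6.76% of lncRNA and 1.69% of coding promoters. With 20 to 59 CpGs the order was reversed, with 79 of 5256 lncRNA and 94 of 3627 coding promoters raised. Under 20 CpGs the shares were close, at 0.149% of lncRNA and 0.120% of coding promoters. Overlapping promoters share calls, and the kinds came down to 38, 185 and 228 separate regions.

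**Figure D3:**
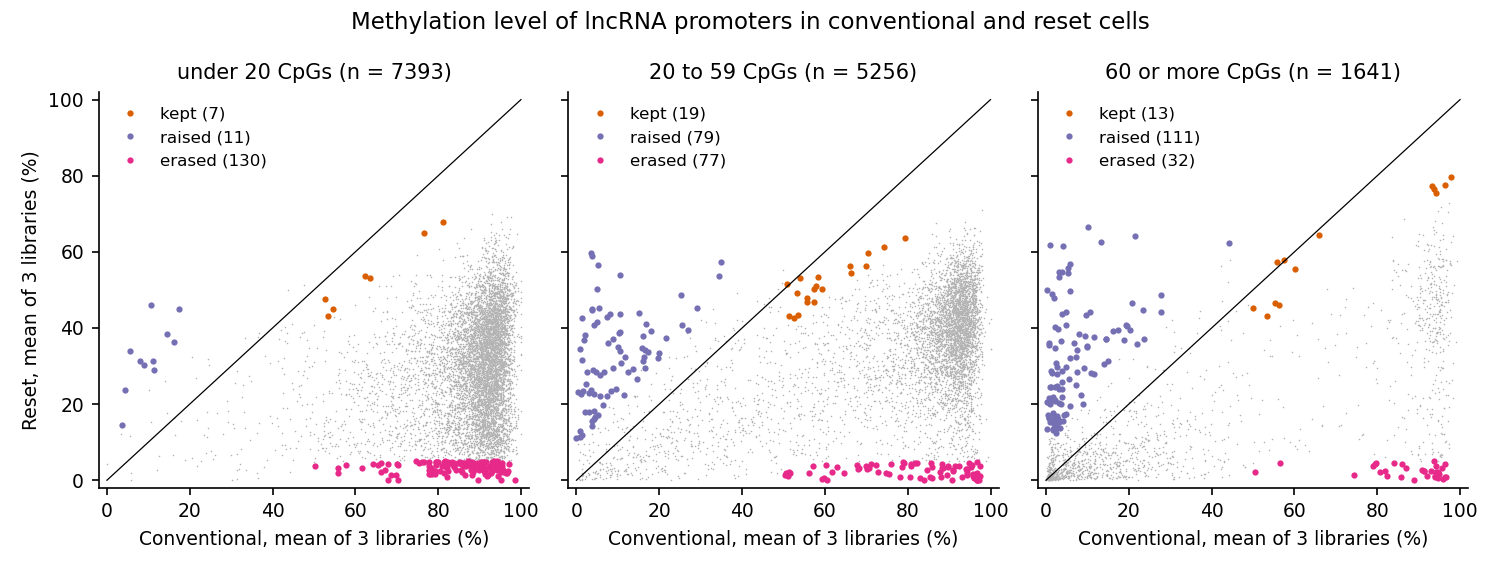
Methylation level of each lncRNA promoter in conventional (x axis) and reset cells (y axis), in %, as means of 3 libraries, by number of CpGs, with kept, raised and erased promoters in colour and the line of equal level. Most points lie far under the line; raised points (11, 79 and 111) rise from the left edge and erased ones (130, 77 and 32) lie along the bottom.

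The limits of these kinds are not natural gaps. LINC02604 was just inside the kept rule with 80.16% of its level left and ENSG00000287092 just outside with 79.96%. PTPRG-AS1 rose by 10.06 points, just enough to be raised, and ENSG00000269275 by 9.954 points. ENSG00000232031 ended at 4.991% and ENSG00000231681 at 5.000%.

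The largest rise was at LINC01956 (ENSG00000258910, chr2:119592186-119593686), whose start lies 12538 bp from that of EN1, a homeobox gene of midbrain and limb patterning. It had 0.769%, 2.01% and 0.443% in the conventional and 64.0%, 59.7% and 61.6% in the reset libraries. The groups were far apart, a rise of 60.7 points (adjusted p = 1.782e-10, as are all adjusted p below from the quasi-binomial model over all promoters, with dispersions squeezed by limma). SOX21-AS1 (ENSG00000227640, chr13:95354708-95356208, 81 CpGs), antisense to the neural factor gene SOX21, had 1.80%, 2.77% and 7.48%, then 66.5%, 49.2% and 69.0% (adjusted p = 1.531e-08). LINC02135 (ENSG00000268532, chr16:86319033-86320533) had 2.70%, 5.84% and 8.90%, then 65.1%, 51.5% and 53.6%, with FOXF1, a mesenchymal forkhead factor gene, as its nearest coding gene 224100 bp away. All 3 began near 0, and every reset library stood far above every conventional one.

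The next rises with a symbol were of the same kind. LINC03010 went from 5.20% ± 0.676 to 55.8% ± 5.03 (n = 3), and EN2, a homeobox gene of the midbrain and hindbrain, is the nearest coding gene. SFTA3, which lies 6403 bp from the start of the lung and thyroid factor gene NKX2-1, went from 1.37% to 49.0%. FOXF2-DT, divergent to FOXF2, went from 1.95% to 48.0%. LINC00605 differed in its start level, 21.5%, and ended at 64.2%. MEIS1-AS2, antisense to the homeobox gene MEIS1, rose from 3.68% to 44.6%. MIR9-3HG, the host of a microRNA of neural progenitors, rose from 3.91% to 43.8%, but by 14.81 points when its promoter was set at the most 5′ start. HAND2-AS1, beside the heart and limb factor gene HAND2, rose from 2.92% to 39.7%. Among genes with no symbol, ENSG00000287263 near ANXA2R rose from 10.1% to 66.7%. None of these 11 promoters had a conventional library above any reset library, which the rule requires.

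**Figure D4:**
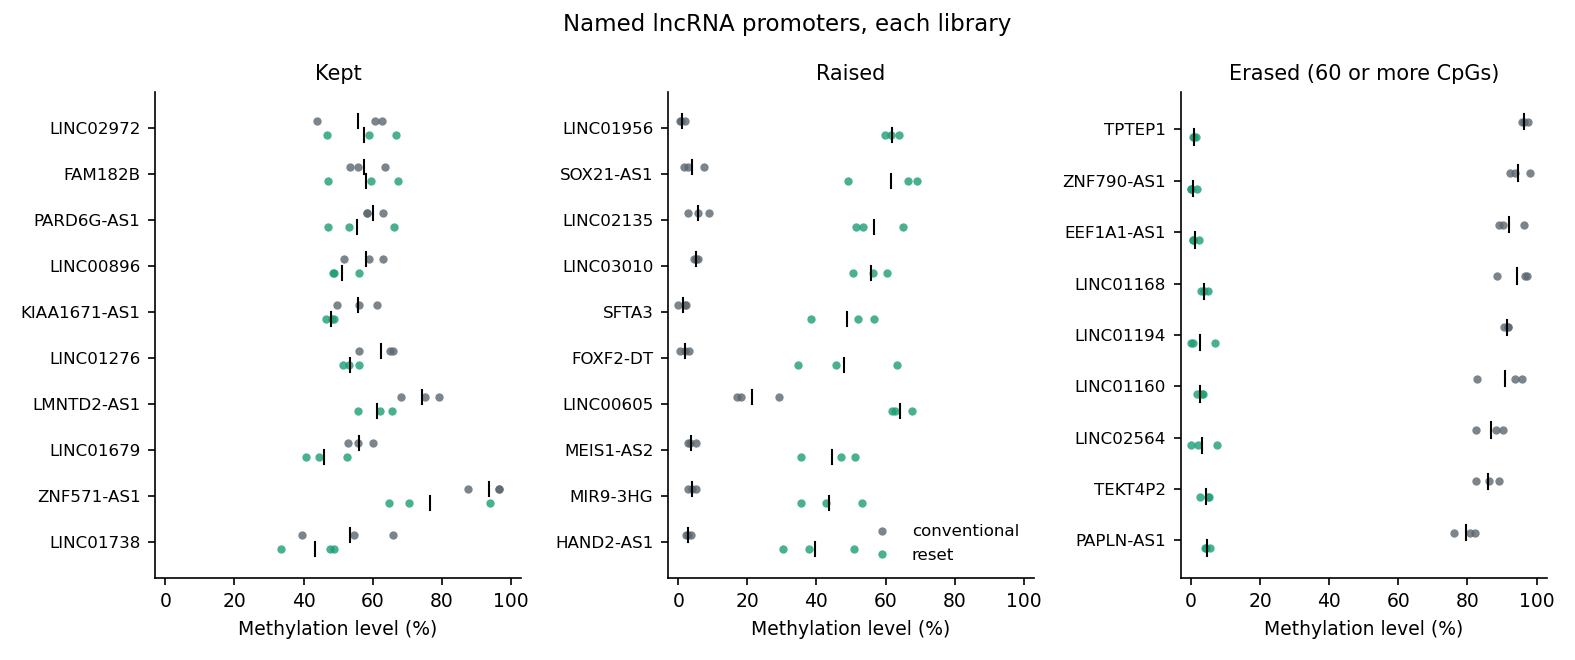
Methylation level (%, x axis) in each library (dots) with the mean (bar) for the 10 kept and 10 raised promoters with a symbol that lead their rankings and the 9 erased promoters of 60 or more CpGs with a symbol. Raised promoters start at 29.27% or less and end at 30.39% or more, erased ones go from 76.22% or more to 7.509% or less, and the states overlap in most kept ones.

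Over the 201 raised promoters the median rise was 21.01 points, and 46 rose by 30 points or more. From a start under 5% came 50.2% of them, and 20 ended at 50% or more. Their neighbours had a theme that was noticed after the values had been seen: the nearest coding gene was a developmental transcription factor (a HOX, FOX, SOX, PAX, TBX, NKX, IRX or like family) for 68 of 201 (33.8%), against 3.45% of all lncRNA promoters. Within the classes of CpG number the shares were 36.4% against 2.71%, 30.4% against 3.33% and 36.0% against 7.19%. Start level narrows the contrast, which was not tested. Of the lncRNA promoters under 20% in conventional cells 13.3% lay next to such a gene, and of those 151 promoters 66 (43.7%) were raised, against 118 of 981 next to other genes. Beside HAND2 there were 3 raised lncRNA promoters, of HAND2-AS1, ENSG00000286039 (3.49% to 59.7%) and ENSG00000288776 (5.71% to 49.8%).

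The promoter of the neighbouring coding gene mostly did not meet the raised rule. It was raised next to 32 of 197 raised lncRNA promoters with a tested neighbour (16.2%), against 2.62% next to lncRNA promoters at large and 5.70% next to the 1088 that began under 20% and had a tested neighbour. EN1 went from 1.67% to 16.8%, TBX15 from 0.595% to 56.2% and PRRX1 from 0.630% to 32.5%, whereas NKX2-1 stood at 1.03% and 2.43%, FOXF1 at 0.647% and 4.57%, and EN2 at 1.75% and 4.87%. For lncRNA genes named after a coding gene (antisense, divergent, overlapping or intronic), 1254 pairs could be compared. In 28 of them the lncRNA promoter was raised, with a median of 3.734% in conventional and 31.90% in reset cells. The coding promoters of these pairs had medians of 2.087% and 5.531%, 6 were called higher and 7 lower, and 1, that of HAND2, met the raised rule. Over all 1254 pairs 107 coding promoters were called higher, 643 lower and 28 met the raised rule. Of the lncRNA promoters of all these pairs 51 were called higher, 1100 lower and 28 met the raised rule. The 28 pairs above were chosen by the rise of the lncRNA promoter, so the contrast with their partners rests in part on that choice.

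Among partners of raised lncRNA promoters, SOX21 stood at 0.745% and 1.15% while SOX21-AS1 rose by 57.6 points. MEIS1 stood at 0.155% and 0.237%, NKX2-2 at 1.27% and 1.57%, and FOXF2 at 2.73% and 6.37%. The promoters of a pair did not overlap, since such lncRNA promoters had been left out, and how far apart they lie is not given here. Among the 7 partners that fell were A2M, from 87.7% to 20.3% while A2M-AS1 rose from 7.30% to 32.4%, and ADIRF, from 96.4% to 35.3% while ADIRF-AS1 rose from 7.89% to 38.5%. In these pairs the levels of the promoters came closer together.

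**Figure D5:**
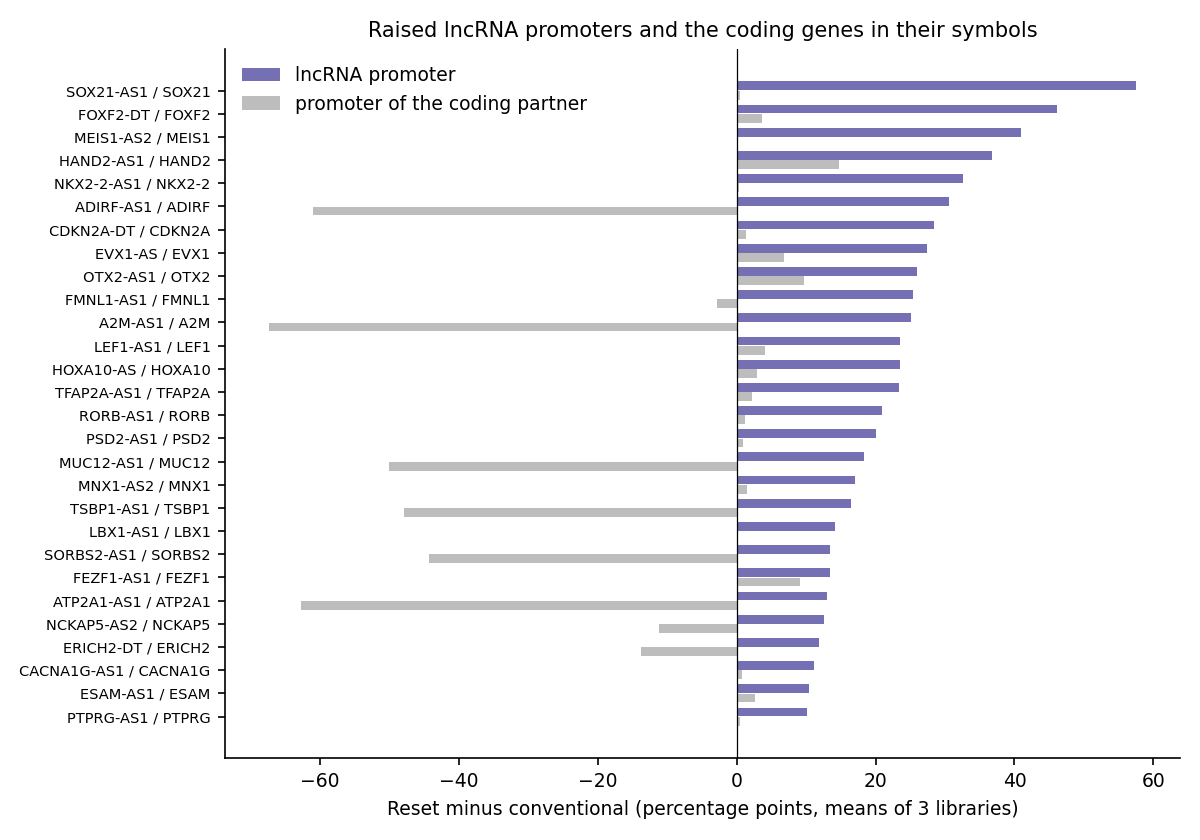
Change in methylation level (reset minus conventional, percentage points, x axis, means of 3 libraries) of 28 raised lncRNA promoters and of the promoter of the coding gene in each symbol, ordered by the lncRNA rise. Only the bar of HAND2 (14.66 points) passes the raised rule among coding partners, and those of A2M, ADIRF and others point down.

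Erased promoters with 60 or more CpGs rest on the most calls. TPTEP1 (ENSG00000290418, chr22:17081777-17083277, 192 CpGs), a transcribed pseudogene related to the phosphatase TPTE, had 97.5%, 96.4% and 95.7% in the conventional and 0.790%, 0.557% and 1.29% in the reset libraries (adjusted p = 7.210e-14, at least 254 calls per library). ENSG00000283633 shares most of that promoter and its values. ZNF790-AS1 (ENSG00000267254, chr19:37287418-37288918, 108 CpGs), antisense to a zinc-finger gene, had 92.3%, 93.8% and 98.2%, then 1.69%, 0% and 0% (adjusted p = 1.890e-11). EEF1A1-AS1 (ENSG00000229862, chr6:74232341-74233841, 89 CpGs), beside the gene of translation elongation factor 1 alpha, had 90.4%, 89.1% and 96.3%, then 0.581%, 2.34% and 0.437%. In all of these the conventional libraries were near full methylation and the reset libraries near 0.

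The other 6 erased promoters with a symbol in this class ended between 2.48% and 4.60%. They were LINC01168 (94.2% to 3.81%), LINC01194 (91.3% to 2.48%), LINC01160 (90.8% to 2.69%), LINC02564 (87.0% to 3.21%), TEKT4P2 (85.9% to 4.18%) and PAPLN-AS1 (79.7% to 4.60%). With 20 to 59 CpGs, LINC02281 and LINC02327, which neighbour each other, went from 97.3% to 0% and from 96.5% to 0.457%. LINC02583 went from 96.7% to 0%, with 97 calls or more per library, and shares its promoter with ENSG00000253515 and ENSG00000284608. DSCR8 and DSCR4, transcripts of the Down syndrome critical region whose promoters overlap, fell from 95.9% to 0.604% and 0.976%.

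Under 20 CpGs the erased promoters rest on fewer calls. ARPP21-AS1 (4 CpGs, at least 13 calls per library) fell from 98.5% to 0%, DLG2-AS2 from 96.4% to 1.96%, CADM2-AS2 from 94.6% to 1.19%, LINC02718 from 95.7% to 2.76% and LINC00561 from 97.0% to 4.37%. The median of the lowest call number among erased promoters was 18 in this class, 61 with 20 to 59 CpGs and 127 with 60 or more. Only 96 of 239 were under 5% in each reset library taken alone, and with at least 30 calls in every library 109 erased promoters were left.

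Of lncRNA promoters at 50% or more in conventional cells, 1.94% were erased in all, 4.07% on chromosome 21, 3.03% on chromosome 4 and 3.02% on chromosome 19. On chromosome 19 lay 13.0% of those with 20 to 59 CpGs and 12.5% of those with 60 or more CpGs, against 6.24% and 6.09% of all lncRNA promoters in these classes. Of the 130 with under 20 CpGs 0 lay there, against 1.73%, and over all classes the share was 5.86% against 3.89%. For 10 of the 14 erased promoters there, the nearest coding gene was a zinc-finger gene of the ZNF family, which was so for 23.3% of the 463 lncRNA promoters of that chromosome at 50% or more. This grouping was noticed after the values had been seen, several of the promoters are neighbours, and it was not tested. Besides ZNF790-AS1 they included LINC01535 (88.1% to 0.858%) and LINC01233 (85.4% to 0.926%).

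The median level of the 39 kept promoters in conventional cells was 57.9%, 29 of them were under 70% there, and 5 at 90% or more. Cut into stretches of 500 bp, 27 had at least 2 stretches with 10 calls or more in every library. In 14 of these 27, one stretch rose and another fell by 10 points or more, and in only 1 was every such stretch kept. LINC02972 had 43.8%, 60.7% and 62.8% in the conventional and 66.7%, 46.7% and 58.8% in the reset libraries, with full overlap (adjusted p = 0.881). Its far stretch fell from 97.0% ± 2.87 to 55.3% ± 17.7 while that after the start rose from 9.89% ± 8.58 to 59.8% ± 1.83. FAM182B (ENSG00000175170, chr20:25848286-25849786) had 63.5%, 53.4% and 55.7%, then 67.4%, 59.4% and 47.0% (adjusted p = 0.952). It fell after the start, from 80.02% to 51.55%, and rose just before it, from 27.6% to 56.7%. ENSG00000287403, with 50.9% and 51.7% over the whole promoter, went from 13.5% to 56.1% at its far end and from 88.4% to 49.7% after the start.

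In the other kept promoters with a symbol among the leading 10, the mean level changed by -4.605 to -17.17 points. PARD6G-AS1 (ENSG00000267270, chr18:77904963-77906463) had 58.5%, 63.1% and 58.5%, then 66.1%, 47.0% and 53.1% (adjusted p = 0.113), but without reset replicate 1 the change was -9.946 points with an adjusted p of 0.0153. LINC00896 (57.9% to 51.1%), KIAA1671-AS1 (55.7% to 47.9%), LINC01276 (62.4% to 53.6%) and LINC01738 (53.4% to 43.4%) did not pass the test. Leaving out conventional replicate 3 brought KIAA1671-AS1 past it (adjusted p = 0.0287), and leaving out conventional replicate 1 did so for LINC01738 (adjusted p = 0.0128). LMNTD2-AS1 (74.2% to 61.2%, adjusted p = 0.00870) and LINC01679 (56.2% to 45.9%, adjusted p = 0.0154) fell. LINC01679 lost the call without conventional replicate 1, reset replicate 1 or reset replicate 2, with adjusted p of 0.0576 to 0.0769. Between 500 bp upstream and 500 bp downstream of the start the changes of LINC01738, LINC00896 and LMNTD2-AS1 were -28.86, -15.45 and -30.18 points, all called, and that of LINC01679 was -6.035 points (adjusted p = 0.255). At its most 5′ start LINC01276 fell by 44.69 points, also called.

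The 5 kept promoters that began at 90% or more stayed high but were each called lower in reset cells. The far stretch of LINC02604 went from 97.7% to 62.7%, and that of ENSG00000227193 from 99.0% to 70.8%. Only in ENSG00000234431 did at least 2 stretches have 10 calls or more in every library and all meet the kept rule. ZNF571-AS1 (ENSG00000267470, chr19:38038849-38040349, 75 CpGs) had 87.7%, 96.6% and 96.7% in the conventional libraries and 94.1%, 64.8% and 70.6% in the reset libraries, so that 1 reset library stood as high as the conventional ones. It was called lower (adjusted p = 5.596e-04), with a change of -25.95 points without reset replicate 1 and -11.34 points without reset replicate 2. ENSG00000227193 (97.8% ± 3.85 to 79.6% ± 5.10), SNHG27 (96.4% to 77.5%) and LINC02604 (94.3% to 75.6%) also began above 90% and each was called lower. So was ENSG00000234431 (69 CpGs), which went from 93.2% ± 5.31 to 77.4% ± 1.93 (adjusted p = 5.991e-04). These 5 were left with 80.16% to 83.06% of their level, just above the 80% that the kept rule requires. The lncRNA promoters of 60 or more CpGs at 80% or more in conventional cells were left with a median of 46.21%. The rule itself sets these apart. A hexamer bound by ZFP57 when methylated, TGCCGC, searched on both strands, was present in 48.7% of kept and 21.0% of all lncRNA promoters. With under 20 CpGs the shares were 28.6% (2 of 7) and 8.37%, and with 20 to 59 they were 42.1% (8 of 19) and 26.9%. With 60 or more they were 69.2% (9 of 13) and 58.9%. The hexamer holds a CpG, and CpG number was matched only by class. Raised promoters held it in 45.3%, and by class, in the same order, in 36.4%, 35.4% and 53.2%. Erased promoters held it in 20.9%, and by class in 3.85%, 37.7% and 16 of 32. In the densest class both shares were below that of all lncRNA promoters. The erased share was above it only with 20 to 59 CpGs.

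Of 14 imprinted lncRNA genes in the set 11 fell, 1 rose and 2 did neither, with a median change of -41.6 points, against 92.5% lower and -51.8 points over all lncRNA promoters. Of the 13 that began at 20% or more, 11 fell (84.6%, against 97.8%). PEG13, whose promoter is a maternally methylated region, had 49.4%, 40.5% and 47.8% in the conventional and 54.6%, 41.9% and 36.5% in the reset libraries (adjusted p = 0.840). GNAS-AS1, antisense to the imprinted GNAS gene, had 52.3%, 43.2% and 30.3%, then 43.98%, 45.2% and 32.0% (adjusted p = 0.687). In both the states overlapped and the mean level was intermediate, but their stretches differed. After the start GNAS-AS1 went from 38.6% ± 11.6 to 18.8% ± 2.11 and in the far stretch from 49.3% ± 26.5 to 61.2% ± 11.6, and the far stretch of PEG13 went from 78.1% ± 0.701 to 58.5% ± 13.4. A level near 50% cannot say whether one allele is methylated, since calls were not assigned to alleles.

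KCNQ1OT1, the antisense RNA that silences its imprinted domain, had 50.2%, 47.7% and 44.4%, then 40.3%, 23.7% and 18.6% (adjusted p = 6.352e-04), with reset libraries that differed widely. The conventional libraries also differed widely in the 500 bp before its start, which went from 36.8% ± 30.2 to 14.1% ± 17.2. H19 fell from 36.5% ± 2.76 to 12.8% ± 3.96. Its far stretch went from 88.6% ± 12.7 to 32.4% ± 15.5 and that after the start from 21.95% ± 7.14 to 2.84% ± 2.71. MEG3 (93.4% to 56.2%) and its neighbours MEG8 (85.6% to 41.3%) and MEG9 (92.4% to 50.2%), of the DLK1 domain, fell by 37.2 to 44.3 points from high levels. In the Prader-Willi region SNHG14 fell from 87.2% to 33.9%, PWRN1 from 82.1% to 23.5%, PWRN2 from 71.9% to 12.4% and PWRN4 from 56.9% to 15.8%. AIRN (87.4% to 22.6%) and DLGAP2-AS1 (91.88% to 36.97%) fell as well. KCNQ1DN alone in this list rose, from 16.3% ± 3.29 to 39.1% ± 3.94 (adjusted p = 1.571e-06). It rose upstream of the start, from 8.87% to 40.6% in the far stretch, and after the start it went from 51.4% to 37.9%.

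Among 16 lncRNA genes linked to pluripotent cells, 10 fell and 3 rose. The 3 rises were among 4 members that began under 20%, where 26.7% of lncRNA promoters rose, and of the 12 that began higher 9 fell, against 97.8% of lncRNA promoters. LINC01194 fell most, from 91.3% to 2.48%. LINC-ROR, a regulator of reprogramming, fell from 87.5% to 32.8%, ESRG, a transcript of human pluripotent cells that starts in a retroviral repeat, from 21.2% ± 8.35 to 2.76% ± 0.580, and MIR302CHG, the host of a microRNA cluster specific to pluripotent cells, from 12.1% to 2.64%. LNCPRESS1 fell from 29.3% to 4.73%. LNCPRESS2 rose from 1.73% to 36.9%, LINC00261, an endoderm transcript beside FOXA2, from 1.27% to 28.7%, and LINC00545 from 9.65% to 24.1%. The smallest changes were at MIR302CHG among called promoters and, among the others, at LINC01405 (33.8% to 24.0%, adjusted p = 0.0868).

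At lncRNA genes of the HOX clusters 5 of 9 promoters rose and 0 fell in the quasi-binomial model, also at an unadjusted p under 0.05. All 9 began under 20%, and of all lncRNA promoters with such a start 26.7% rose. HOXC-AS2 had 9.35%, 13.7% and 8.40% in the conventional and 66.0%, 35.3% and 29.8% in the reset libraries, so that 1 reset library lay far above the others. HOXB-AS4 went from 16.7% to 41.0%, HOXA10-AS from 10.4% to 33.9%, HOXA-AS2 from 8.81% to 20.1% and HOXD-AS2 from 4.85% to 9.65%. HOTAIR, the trans-acting transcript of the HOXC cluster, had 4.50% ± 0.693 and 3.94% ± 1.26 (adjusted p = 0.553).

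Partners of other developmental factors gave 10 rises, 5 falls and 7 promoters with neither among 22. All 10 rises were among the 16 that began under 20% (62.5%, against 26.7% of lncRNA promoters with that start). SOX21-AS1 rose most, and OTX2-AS1 (2.56% to 28.5%), EVX1-AS (17.4% to 44.9%) and LBX1-AS1 (2.75% to 16.9%) rose with it. The 5 that fell began higher, among them LMX1A-AS2 (91.6% to 34.2%), HNF4A-AS1 (86.4% to 41.4%), PAX8-AS1 (95.9% to 56.5%) and DLX6-AS1 (29.1% to 15.4%). NR2F1-AS1 stood at 0.770% and 0.708%, and FOXD3-AS1 at 0.683% and 1.42%. Several members of this list, HAND2-AS1 and SFTA3 among them, also led the raised ranking and are not separate evidence of it.

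Of 23 broadly expressed lncRNA genes, mostly hosts of small nucleolar RNAs, 21 fell (92.5% of all lncRNA promoters did) and 0 rose in the quasi-binomial model, also at an unadjusted p under 0.05, and the level was lower in reset cells in all 23, with a median level of 13.0% in conventional and 1.10% in reset cells. Of the 16 that began under 20%, 14 fell (87.5%), where 30.8% of all lncRNA promoters with that start did. The median change of the 16 was -7.40 points, while all lncRNA promoters under 20% began at a median of 5.736%. Start level was therefore not matched within this range, and the contrast was not tested. SNHG20, which began at 69.97%, fell most, to 25.7%. SNHG12 fell from 42.5% ± 6.24 to 0.905% ± 0.474, SNHG6 from 31.0% ± 10.3 to 0.349% ± 0.319, OIP5-AS1 from 15.5% to 0.473% and SNHG15 from 19.3% to 1.10%. NEAT1, the scaffold RNA of paraspeckles, fell from 7.63% to 0.635%, MALAT1 of nuclear speckles from 11.7% to 2.74% and NORAD from 22.1% to 7.66%. SNHG1 was near 0 in both states (0.276% and 0.188%).

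Hosts of microRNAs gave 30 falls, 2 rises and 10 promoters with neither among 42. Of the 16 that began under 20%, 37.5% fell and 12.5% rose, against 30.8% and 26.7% of lncRNA promoters, and of the 26 others 92.3% fell, against 97.8%. MIR2052HG fell most, from 82.9% to 0.709%, MIR217HG from 92.0% to 13.0% and MIRLET7BHG, host of let-7 microRNAs, from 90.9% to 42.7%. MIR124-2HG, host of a neuronal microRNA, rose from 0.666% to 20.3%, next to MIR9-3HG above. MIR17HG, the host of a growth-promoting microRNA cluster, fell from 5.597% to 1.908%, and MIR34AHG had 1.01% and 1.17%. Of 24 lncRNA genes known from cancer and disease 17 fell and 1 rose. The 17 were all the members that began at 20% or more, where 97.8% of lncRNA promoters fell. BCAR4 fell most, from 91.5% to 18.0%, and LINC01016 was left with most (96.0% to 62.4%). PCAT7 rose from 10.9% to 28.2%. DLEU1 had 0% in every library, and PVT1 had 4.31% and 2.91%.

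Levels differed somewhat by position relative to coding genes. The 8964 promoters outside coding genes went from 77.3% ± 0.133 to 28.3% ± 0.571, the 3910 inside a coding gene on the other strand from 79.4% to 31.5%, the 1273 on the same strand from 83.8% to 33.3% and the 143 inside coding genes on both strands from 85.2% to 34.9%. In every reset library the promoters outside coding genes were lowest of these. Kept, raised and erased promoters lay outside coding genes in 74.4%, 71.1% and 73.6% of cases, against 62.7% of all lncRNA promoters. By class (under 20, 20 to 59, 60 or more CpGs) the shares of all lncRNA promoters were 63.2%, 60.2% and 68.6%. Kept ones had 100% (7 promoters), 57.9% and 84.6%, raised ones 72.7%, 67.1% and 73.9%, and erased ones 66.9%, 80.5% and 84.4%. The excess was thus uneven, and kept promoters with 20 to 59 CpGs had none. Raised promoters were closer to a coding start (median 15371 bp) than lncRNA promoters at large (53544 bp). By class the medians were 7702 bp against 76186 bp with under 20 CpGs, 22157 bp against 40243 bp with 20 to 59 and 13049 bp against 28142 bp with 60 or more. Erased ones had a median of 125363 bp, and by class 217060, 57483 and 27705.5 bp.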

How the data were processed

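The authors deposited, for each CpG cytosine and library, counts of methylated and unmethylated calls beside their percent. Per the labels, reads were trimmed with Trim Galore and aligned to GRCh37 with Bismark 0.9.0 and Bowtie2; the methods name another Bismark version. Removal of duplicate reads is not stated. The counts were used with no normalization. Positions count from 0, and the calls of a CpG's strands were added up. Genes came from GENCODE release 44 lifted to GRCh37. Where a coding gene had no canonical transcript, its most 5′ start was used (279 genes).

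Library means were compared with exact permutation tests. Single promoters were tested by fitting the group in a quasi-binomial logistic model (likelihood-ratio F test, dispersion squeezed with limma 3.58.1 in R 4.3.3 and kept at 1 or more) over 37081 promoters of chromosomes 1 to 22 and X, with Benjamini-Hochberg adjustment at 0.05. The fit was tested on simulated calls. Summaries used Python with numpy and pandas.

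The members, gene lists and rules were chosen with earlier results of these data known. The rule named the 10 kept and 10 raised promoters with a symbol and the largest values, the erased ones with the largest falls (10 at 60 or more CpGs, where 9 had a symbol, and 5 in each other class), the leading 3 of each ranking, every imprinted member and the largest and smallest changes of each list. Other members are named as examples chosen after their values were seen. Percentages from few calls carry counting error. Calls from the same read, and from PCR copies of it, are not independent, while the model counts each call. Some items that the rule would name are not reported here.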

Additional observations from a re-analysis of the deposited data

How the results depend on the processing

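Of 192 recomputed mean levels, differences and counts 184 kept their direction and the others are counts that moved by over 1.5 times. Some differences moved as much. From 500 bp upstream to 500 bp downstream the mean change with 60 or more CpGs was -10.36 points (main -18.30), and the change in the lncRNA minus coding difference was -20.16 points with 20 to 59 CpGs (main -12.87) and -3.212 points with under 20 (main -2.115). With coding promoters weighted by CpG number it was -4.872 points over all classes (main -30.07) and -7.825 points with 20 to 59 CpGs. With at least 30 calls in every library 109 promoters were erased. Without lncRNA promoters that overlap the body of a coding gene there were 8084 lower and 201 higher calls, from fewer promoters. Other limits moved the kinds by construction: kept 140 at 70% and 10 at 90% of the level left, raised 115 at a rise of 20 points, erased 69 under 2% and 827 under 10%. Leaving out 1 library gave 36 to 49 kept, 198 to 212 raised and 237 to 297 erased, and without reset replicate 1 to 3 in turn 200, 198 and 204 of the 239 erased remained. Without conventional replicate 2, 26 of the 39 kept remained. For 47 named promoters 503 values were recomputed: 490 kept their side of the threshold, 5 lost the call, 7 gained it and 1 reversed. Uncalled changes of LINC01276, ENSG00000287403, FAM182B and LINC02972 also took the other sign in some of the 490. From 500 bp upstream to 500 bp downstream, ENSG00000287403 changed by -19.50 points and LINC02972 by 48.17 points, since their stretches moved in opposite directions. At its most 5′ start LINC01276 fell by 44.69 points.

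Same-numbered libraries did not deviate together (correlations 0.005227, 0.002818 and -0.001770), so no pairing by number was seen. Deviations at single promoters hold counting error (median SDs of 3.490 points in conventional and 5.742 in reset cells). The check therefore cannot exclude pairing. The replicate block gave 13117 lower, 300 higher, 39 kept, 199 raised and 239 erased promoters. The mean change of -48.79 points had p = 0.25 in the exact sign-flip test, the smallest 3 pairs allow. ZNF571-AS1 was not called with the block (adjusted p = 0.0513).

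With 2.507 to 3.494 calls per CpG and library, levels of CpG-poor promoters are coarse: the median SD over reset libraries was 6.646 points under 20 CpGs and 2.452 at 60 or more. A promoter without a call is not shown to be unchanged. Repeats were not annotated here.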

Other observations

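The 3020 autosomal lncRNA promoters left out because they overlap a coding promoter, and so share calls with it, that had 10 calls in every library went from 16.5% ± 0.211 to 6.94% ± 0.0425 (SD, n = 3), and 66 of them were raised, 21 erased and 3 kept (1.59%, 1.20% and 0.167% over all promoters tested). With 60 or more CpGs (2387 promoters) they stood at 8.37% and 3.75%. On the X chromosome 261 lncRNA promoters apart from coding promoters went from 73.8% ± 0.165 to 30.1% ± 0.519, and those with 60 or more CpGs from 38.4% ± 1.77 to 11.8% ± 0.872 (n = 29 promoters).

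Of 1801 autosomal lncRNA promoters at 25 to 75% in conventional cells, 778 were in that range in reset cells too, and 76 of these changed by under 5 points and were not called.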
